A study of Homo sapiens with 5 samples.

Results

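The stathmins and neuronal microtubule proteins described here are 10 genes, STMN1, STMN2, STMN3, STMN4, DCX, DCLK1, MAPT, MAP2, MAP1B and GAP43, found by symbol among the 32732 gene identifiers that all 8 libraries list. All 10 carried the same identifier in every library. Single-cell RNA-seq was performed on WA09, a wild-type human embryonic stem cell line (also known as H9), as it was differentiated towards GnRH neurons, the hypothalamic neurons that secrete gonadotropin-releasing hormone. The libraries were undifferentiated cells (D0), cells after 5 and 10 days of dual SMAD inhibition with dorsomorphin and SB431542 (D5_dSMADi, D10_dSMADi), the same 2 days with the tankyrase inhibitor XAV939, which blocks Wnt signaling, added from the start (D5_XAV939, D10_XAV939), and cells of 3 later days (D22, D24, D26) that had received dual SMAD inhibition without XAV939, then FGF8, a freeze and thaw, and then DAPT, a gamma-secretase inhibitor that blocks Notch. Each of these 8 conditions is 1 library of 1 cell line, so no difference below has a replicate check and no p-value is given.

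Microtubules are polymers of tubulin that give an axon its core and its tracks. Stathmins bind free tubulin and promote disassembly, doublecortin (DCX) and its relative DCLK1 bind and stiffen the lattice of migrating and growing neurons, MAPT (tau) and MAP2 mark axons and dendrites, respectively, MAP1B binds microtubules of growing axons, and GAP43 is a membrane protein of the growth cone. In the developing brain many of these genes are switched on as progenitors leave the cell cycle, and DCX and STMN2 are widely used as marks of a young neuron.

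The libraries held 1009 to 11056 cells after filtering, with a median of 7180 to 69455 unique molecular identifiers (UMIs) per cell. D0 to D10 were tagged and pooled in 1 droplet run, while D22 to D26 were 3 separate runs counted with another software version, so differences from D10 to D22, D22 to D24 and D24 to D26 cannot be told apart from differences between runs. Libraries with separate runs shared at most 32 cell barcodes. The pluripotency markers POU5F1, NANOG, LIN28A, DPPA4 and TDGF1 summed to 2715 CPM (UMIs scaled to a library total of 1000000) at D0 and to 5.198 CPM at D26, and MKI67 and TOP2A, which mark dividing cells, summed to 541 to 921 CPM up to D22, 18.2 at D24 and 3.89 at D26. Of 5 neuron markers, ELAVL4, SNAP25, INA and SYT1 were higher at D22 than at D10, whereas TUBB3 was at 183 CPM at D10 and 28.5 at D22. Glial, mesenchymal and epithelial marker lists summed to at most 24.2 CPM each at D22 to D26.

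Levels are UMIs summed over the cells of a library scaled to CPM by the total of that library, with an exact 95% Poisson interval. Intervals cover counting error only. For the 54 member levels of at least 10 CPM the interval reached at most 6.55% to either side, and for the 25 levels of 1 to 10 CPM at most 21.3%. Reads were counted at the 3′ ends of transcripts, so each gene is compared with itself and levels of different genes are not compared. In pooled cells, fewer expressing cells and less RNA per cell cannot be told apart, and this is taken up where cells were split.

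Among the stathmins, STMN1, which is widely expressed in dividing cells, was present throughout. Its level was 944 CPM at D0, 689 at D5_dSMADi, 911 at D5_XAV939, 538 at D10_dSMADi, 805 at D10_XAV939, 2689 at D22, 4195 at D24 and 5216 at D26. All 3 later libraries lay above the 5 early ones, and the lowest value was that of D10_dSMADi. STMN2, the stathmin of growing axons, was at 15.3 CPM at D0, 9.40 at D5_dSMADi, 13.4 at D5_XAV939, 20.2 at D10_dSMADi, 113 at D10_XAV939, 1294 at D22, 9045 at D24 and 8093 at D26. Every later library was above every early one, and the highest value was at D24 and not at D26.

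STMN3, a stathmin of the nervous system, was at 32.3 CPM at D0, 1.83 at D5_dSMADi, 2.13 at D5_XAV939, 3.16 at D10_dSMADi, 9.09 at D10_XAV939, 86.9 at D22, 90.2 at D24 and 114 at D26. It was therefore high, low and high again, with stem cells between the early neural cells and the later ones. STMN4, the remaining stathmin, was at 0.263 CPM at D0 from 20 UMIs (95% interval 0.161 to 0.407), 1.29 at D5_dSMADi, 2.31 at D5_XAV939, 6.31 at D10_dSMADi, 16.5 at D10_XAV939, 65.4 at D22, 336 at D24 and 450.4 at D26. It was higher at each successive day.

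Of the doublecortin family, DCX was at 3.61 CPM at D0, 4.17 at D5_dSMADi, 4.99 at D5_XAV939, 5.78 at D10_dSMADi, 29.6 at D10_XAV939, 401 at D22, 853 at D24 and 1089.9 at D26. Of these values, the first 4 lie within 2-fold of each other, and the later ones lay far above them. DCLK1, a kinase with doublecortin domains, was at 15.2 CPM at D0, 2.15 at D5_dSMADi, 3.24 at D5_XAV939, 5.23 at D10_dSMADi, 8.83 at D10_XAV939, 28.7 at D22, 102 at D24 and 144 at D26. Like STMN3 it had a dip between stem cells and neurons.

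Among the structural microtubule-associated proteins, MAP1B was at 285 CPM at D0, 334 at D5_dSMADi, 379.7 at D5_XAV939, 503 at D10_dSMADi, 690.5 at D10_XAV939, 1303 at D22, 3783 at D24 and 3570.4 at D26. MAP2 was at 15.2 CPM at D0, 45.8 at D5_dSMADi, 80.8 at D5_XAV939, 110.4 at D10_dSMADi, 129.9 at D10_XAV939, 306 at D22, 798 at D24 and 1037 at D26. Both were higher at each successive day without XAV939 from D0 to D24. MAPT was at 1.90 CPM at D0, 3.12 at D5_dSMADi, 2.57 at D5_XAV939, 4.06 at D10_dSMADi, 4.43 at D10_XAV939, 14.03 at D22, 164 at D24 and 348 at D26. GAP43 was at 19.1 CPM at D0, 6.53 at D5_dSMADi, 6.57 at D5_XAV939, 7.76 at D10_dSMADi, 8.21 at D10_XAV939, 145 at D22, 1624 at D24 and 2091 at D26. At D22 these last 2 genes stood at 4.03% (MAPT) and 6.95% (GAP43) of their highest level. The other members stood at 14.3% (STMN2) to 76.2% (STMN3) of theirs.

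**Figure D1:**
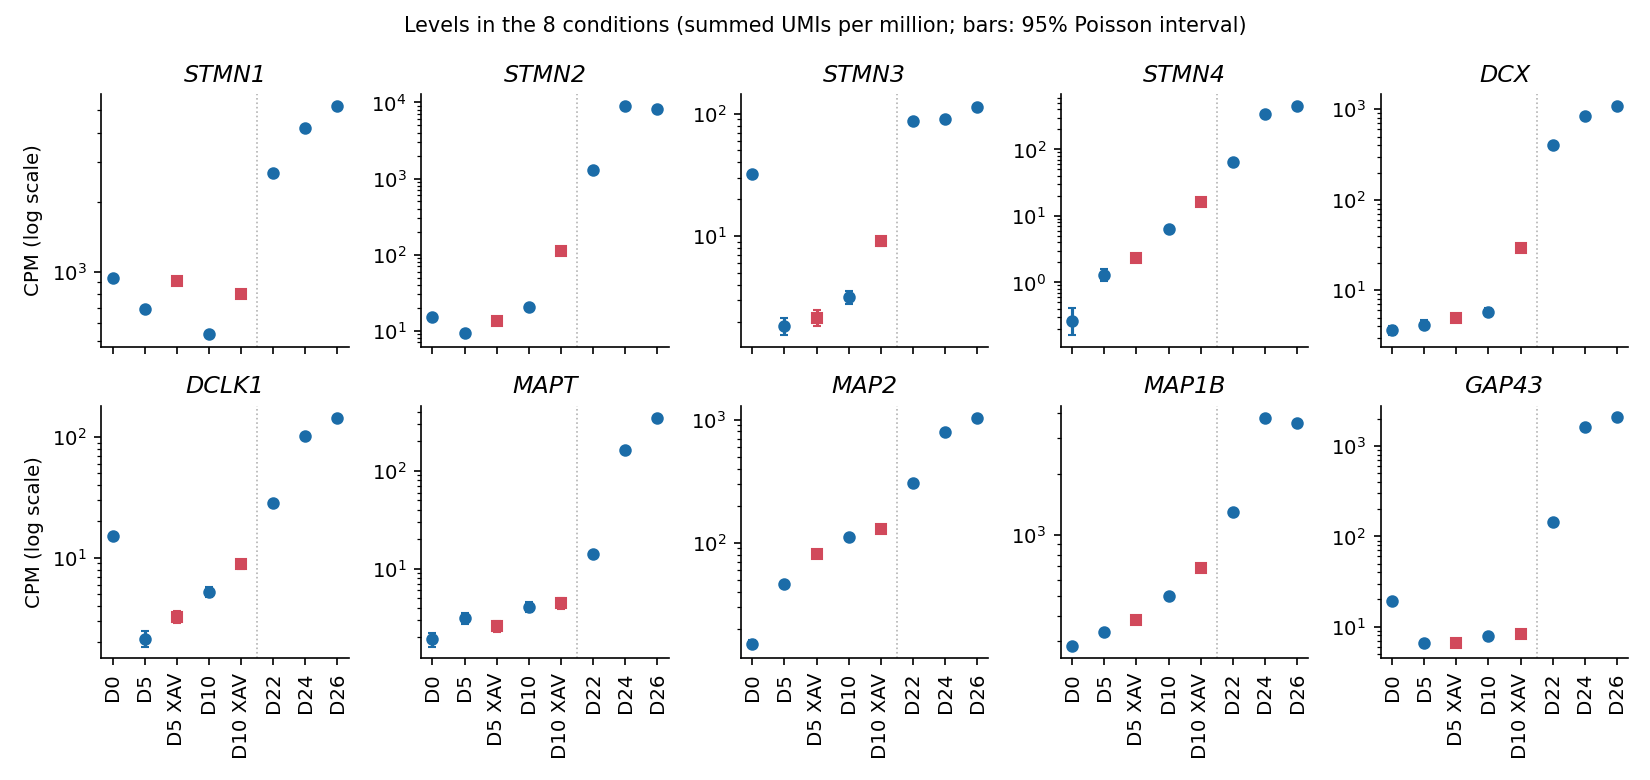
Each panel plots 1 gene, with the 8 conditions on the horizontal axis and the level in CPM on a logarithmic vertical axis. Circles are libraries without XAV939, squares those with it, bars are 95% Poisson intervals, and the dotted line separates the pooled run (left) from the 3 later runs. STMN3, DCLK1 and GAP43 dip after D0, MAP2 and MAP1B climb from D0, and MAPT climbs last, from 14.03 CPM at D22 to 348 at D26.

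The order of onset was read over the 6 conditions without XAV939 as the first day at which a gene reached 10% of its own highest level. By this measure 3 members passed the mark at D0, STMN1 at 18.1% of its highest level, STMN3 at 28.3% and DCLK1 at 10.6%. STMN3 then fell below it, to 1.61% at D5_dSMADi and 2.77% at D10_dSMADi, as did DCLK1, to 1.49% and 3.64%. Both passed it again at D22, so their onset at D0 is that of the stem cell level and not of the later rise. A gene under the mark was not absent, since MAP1B was at 285 CPM at D0 (7.54%). MAP2 (10.6%) and MAP1B (13.3%) first passed the mark at D10_dSMADi. DCX (36.8%), STMN4 (14.5%) and STMN2 (14.3%) passed it at D22, while GAP43 and MAPT stood at 6.95% and 4.03% at D22 and passed it at D24. The 50% mark came at D22 for STMN1 and STMN3, at D24 for 7 members and at D26 for MAPT alone, which was at 47.2% of its highest level at D24. The highest value was that of D26 for 8 members, and that of D24 for STMN2 and MAP1B. DCLK1 and MAP2 lay close to the 10% mark at the days named. A mark of 25% moved 6 of the 10 onsets to a later day, those of STMN1, STMN2, STMN4, DCLK1, MAP2 and MAP1B.

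From D0 to D5 under dual SMAD inhibition, both in the same droplet run, 3 members were at least 2-fold lower and 1 was at least 2-fold higher among the 7 with 10 CPM or more in either library. STMN3 fell by 4.14 on the log2 scale (95% binomial interval of the ratio -4.39 to -3.90), DCLK1 fell by 2.83 (-3.07 to -2.60) and GAP43 fell by 1.55 (-1.695 to -1.402). MAP2 was higher by 1.60 (1.5 to 1.69). Of all 8985 genes tested, 17.0% were lower and 8.24% higher past 2-fold, and the median log2 ratio of genes with 50 CPM or more in both libraries was -0.16. STMN1, STMN2 and MAP1B stayed within 2-fold. STMN3, DCLK1 and GAP43 were under 10 CPM at D5 (1.83, 2.15 and 6.53), as was STMN2 (9.40). They were tested through D0 only and could not have been called higher. The cell filter also differed, with lower limits of 30000 UMIs and 5000 genes at D0 and of 10000 and 3000 at D5_dSMADi.

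The STMN3 level of the stem cells was spread over most cells. A STMN3 UMI was seen in 89.3% of D0 cells at a median of 69455 UMIs and in 5.83% of D5_dSMADi cells at a median of 28789. After thinning every cell to 1500 UMIs the shares were 4.36% and 0.372%. The part of RNA free in the suspension in these shares was not tested. The top 1% of D0 cells held 4.28% of the STMN3 UMIs.

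The stretches that run up to the annotated starts of STMN3, DCLK1 and GAP43, the 3 members that were lower at D5, are shown because promoters rich in CpG dinucleotides are typical of genes used in many cell types, with DCX, too low at both days for a call (0.21, -0.03 to 0.44), as a contrast. Each is 100 bases on the strand of the gene, ending 1 base before a transcription start, without exon sequence, from RefSeq promoters on GRCh38.p14, and the capitals mark CpG.
STMN3 (chr20:63652767-63652866, minus strand): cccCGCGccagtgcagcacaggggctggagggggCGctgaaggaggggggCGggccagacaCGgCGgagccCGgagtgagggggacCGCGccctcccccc
DCLK1 (chr13:36131383-36131482, minus strand): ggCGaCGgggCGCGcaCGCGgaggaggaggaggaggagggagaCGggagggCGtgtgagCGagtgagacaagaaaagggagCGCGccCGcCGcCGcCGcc
GAP43 (chr3:115623410-115623509, plus strand): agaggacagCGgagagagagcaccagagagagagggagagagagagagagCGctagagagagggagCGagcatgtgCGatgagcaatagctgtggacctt
DCX (chrX:111411147-111411246, minus strand): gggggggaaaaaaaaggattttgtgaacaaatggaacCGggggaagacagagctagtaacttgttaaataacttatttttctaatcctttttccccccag

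These stretches held 9 CpG for STMN3, 15 for DCLK1, 4 for GAP43 and 1 for DCX. Whole windows of 300 bases (250 before and 50 after a start) were read for 7 members, with 16 windows among them. STMN2 and STMN4, both on chromosome 8, were not looked up, and none was given for MAPT. The STMN3 window held 35 CpG, more than 85.9% of 35114 human promoter windows, and its ratio of observed to expected CpG was 0.78. The 3 STMN1 windows held 19 to 31 CpG and the first MAP1B window 31, against a median of 14 over all windows. The 3 DCX windows held 2 to 4 and the GAP43 window 7, with CpG ratios of 0.133 to 0.304 and 0.509. A ratio of at least 0.6 was found in 48.9% of all windows, in all those of STMN1 and STMN3, and in none of those of DCX, MAP2 and GAP43. DCLK1 differed between its starts, from 2 CpG in its outermost window to 27 in the window shown above. In the genome (GRCh38, GENCODE 44) STMN3 lies on chromosome 20 at 63639705 to 63657682, DCLK1 on chromosome 13 at 35768652 to 36131382, DCX on chromosome X at 111293779 to 111412429 and GAP43 on chromosome 3 at 115623510 to 115721490. By these positions the STMN3 and DCX stretches lie inside the span of their own gene, and those of DCLK1 and GAP43 just outside it. Which starts were in use in these cells was not tested.

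From D5 to D10 under dual SMAD inhibition, STMN2 and MAP2 were at least 2-fold higher and none of the 4 members tested was lower. STMN2, at 9.40 CPM at D5_dSMADi, was tested through D10 only and could not have been called lower. A STMN2 UMI was seen in 18.1% of D5_dSMADi cells and in 6.66% of D10_dSMADi cells, so its higher level came with fewer positive cells. The log2 ratio was 1.27 (1.21 to 1.32) for MAP2 and 1.10 (0.98 to 1.23) for STMN2, and the latter lost its call with every barcode kept (0.89), with median-ratio scaling (0.99) and without mitochondrial and ribosomal protein genes in the total (0.96). In all, 5.15% of 8619 genes were higher and 1.35% lower, and the median log2 ratio of genes with 50 CPM or more was 0.11. STMN4 was also higher, by 2.29 (1.98 to 2.61), but stayed below the level set for a call.

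The D10 values came from very different numbers of cells. At D10_dSMADi, 89.4% of STMN2 UMIs lay in the 1% of cells with the most, against 64.6% for STMN4, 49.3% for GAP43, 47.0% for DCX, 6.36% for MAP2 and 5.44% for MAP1B. Cells were therefore divided by a neuron gate, at least 3 UMIs of ELAVL4, NHLH1, INA and SNAP25 together after thinning to 10000 UMIs, which uses no member. The gate held 20 of 2416 cells at D10_dSMADi (0.828%, Clopper-Pearson 95% interval 0.506% to 1.28%), 61 of 2168 at D10_XAV939 (2.81%, 2.16% to 3.60%), and 1 cell each at D0, D5_dSMADi and D5_XAV939. A further 16 and 43 cells at D10 were 1 UMI below the gate, without and with XAV939. Gated cells were shallower, with a median of 18880.5 UMIs against 31179.5 outside without XAV939, and 21472 against 24451 with it. Cells under the filter limit of 10000 UMIs were not counted, and their part in these shares was not tested.

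All 10 members were higher inside the gate than outside it at D10_dSMADi, by between 5.64-fold and 1114-fold, where 19.0% of 9597 genes were at least 2-fold higher. STMN2 was at 3339 CPM in the 20 gated cells and at 3.00 CPM in the other 2396. STMN4 (675 against 2.85 CPM), DCX (478 against 3.33) and GAP43 (616 against 4.61) were likewise far higher inside the gate, while the other cells stood below 5 CPM for each. STMN3 was at 106 against 2.63 CPM, DCLK1 at 71.5 against 4.89 and MAPT at 61.6 against 3.76. Being under 10 CPM outside the gate, the genes named so far could only be called higher. By contrast, the remaining 3 genes had a clear level outside the gate too. STMN1 was at 2962 CPM inside and 525 outside, MAP2 at 946 and 106, and MAP1B at 3879 and 485. Of all UMIs of a gene at D10_dSMADi, the 20 gated cells held 85.2% for STMN2, 55.1% for STMN4, 42.6% for DCX and 40.9% for GAP43, but 4.42% for MAP2, 3.97% for MAP1B and 2.84% for STMN1. SOX2, a transcription factor of progenitors, was at 153 CPM in these 20 cells and at 720 in the others. Outside the gate, STMN2 was at 9.40 CPM at D5_dSMADi and at 3.00 at D10_dSMADi. Its higher level at D10 was therefore not shared by the cells outside the gate. The gated group may hold doublets, whose part was not tested, and its levels rest on 20 cells of 1 library.

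**Figure D2:**
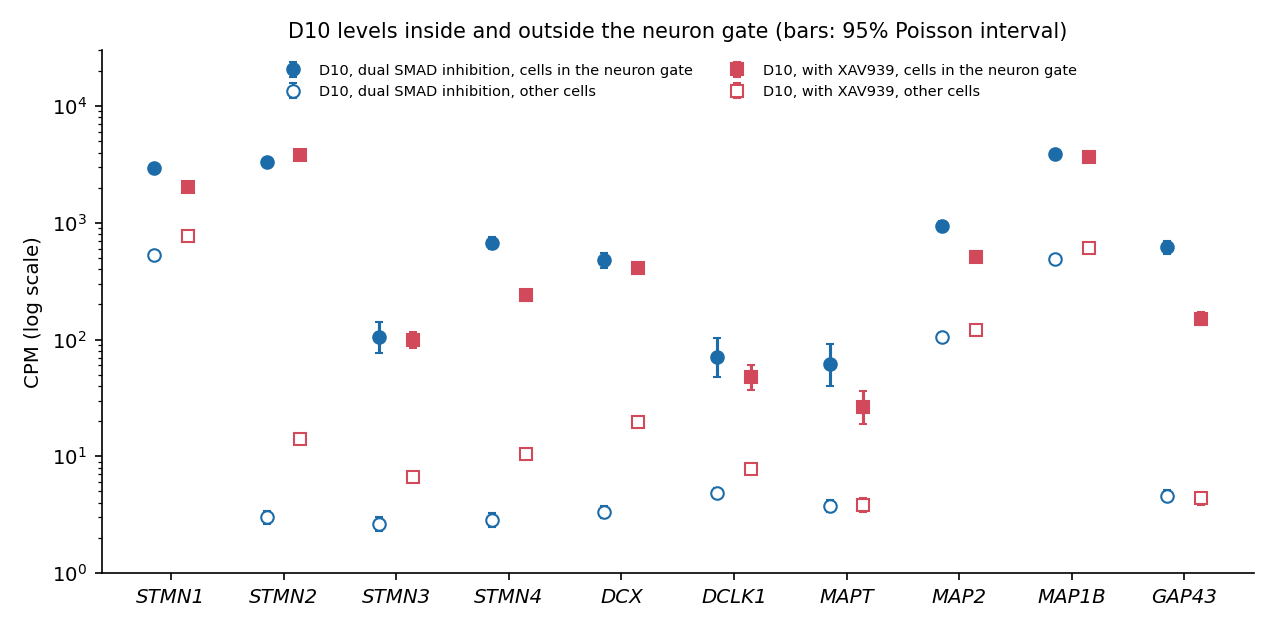
Levels of the 10 genes at D10 in CPM (logarithmic vertical axis) inside the neuron gate (filled) and outside it (open), without XAV939 (circles) and with it (squares). Bars are 95% Poisson intervals. Open circles of STMN2, STMN3, STMN4, DCX, DCLK1, MAPT and GAP43 lie below 5 CPM, whereas those of STMN1, MAP2 and MAP1B lie above 100.

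How the genes stood under Wnt inhibition was read by setting each XAV939 library against the dSMADi library of its day. At D5 none of the 4 members tested differed by 2-fold in either direction, among 8181 genes of which 1.19% did. Of these 4, MAP2 was the farthest at 0.82 (0.76 to 0.88) in log2, followed by STMN2 at 0.51 (0.38 to 0.65) and STMN1 at 0.40 (0.39 to 0.42). Among members too low for a call, STMN4 was at 0.84 (0.49 to 1.19) and DCLK1 at 0.59 (0.32 to 0.88), while MAPT leaned the other way at -0.28 (-0.55 to -0.014). With cells thinned to 1500 UMIs, MAP2 was at 1.11.

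At D10, 3 of 6 members tested were at least 2-fold higher with XAV939 and none was lower, where 2.62% of 8713 genes differed in either direction. DCX (5.78 CPM without XAV939) and STMN4 (6.31) reached 10 CPM only with XAV939, so that neither could have been called lower. STMN2 was higher by 2.48 in log2 (2.40 to 2.56), DCX by 2.36 (2.21 to 2.51) and STMN4 by 1.38 (1.23 to 1.54). STMN1 (0.58), MAP1B (0.46) and MAP2 (0.24) were higher by less than 2-fold. STMN3 was higher by 1.52 (1.30 to 1.75) from levels too low for a call, and for MAPT (0.12, -0.12 to 0.36) and GAP43 (0.08, -0.09 to 0.26) the interval included no difference. D10_XAV939 cells were shallower, with a median of 24290.5 UMIs against 31112.5.

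Read by gate, the libraries differed in the number of gated cells and in the levels both inside and outside it. Inside the gate, STMN2 was at 3805 CPM with XAV939 and 3339 without, a log2 ratio of 0.19 (0.10 to 0.27), and DCX was at 406 and 478 (-0.24, -0.47 to 0.01). GAP43 was at 151 and 616 CPM inside the gate, a log2 ratio of -2.02 (-2.29 to -1.76), and STMN4 at 239 and 675 (-1.496, -1.73 to -1.26). MAPT was at 26.5 and 61.6 CPM (-1.22, -1.98 to -0.44) and MAP2 at 511 and 946 (-0.89, -1.07 to -0.71). Outside the gate, DCX was at 19.5 CPM with XAV939 and 3.33 without (2.55, 2.36 to 2.75), STMN2 at 13.97 and 3.00 (2.22, 2.01 to 2.44), STMN4 at 10.5 and 2.85 (1.88, 1.66 to 2.11) and STMN3 at 6.67 and 2.63 (1.34, 1.09 to 1.59). For GAP43 (-0.07, -0.31 to 0.17) and MAPT (0.03, -0.23 to 0.29) the interval outside the gate included no difference. MKI67 and TOP2A were at 55.6 and 154 CPM in the gated cells with XAV939, and at 4.93 and 14.8 in those without, from 2 and 6 UMIs.

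From D10_dSMADi to D22, all 10 members were at least 2-fold higher, against 11.7% of 9168 genes (21.7% were lower). Of these members, STMN3 (3.16 CPM at D10_dSMADi), MAPT (4.06), DCLK1 (5.23), DCX (5.78), STMN4 (6.31) and GAP43 (7.76) reached 10 CPM only at D22. They could thus not have been called lower. Between these 2 libraries, run, software version, days of culture and treatment (FGF8, a freeze and thaw, and DAPT before D22) differ. By the study's methods, dissociation differs too (Accutase at D10 and papain at D22). The gene annotation (36601 genes listed at D10 and 33538 at D22) and the lower limit on UMIs per cell (10000 and 1500) also differ. The log2 ratios ran from 1.37 for MAP1B and 1.47 for MAP2 to 6.002 for STMN2 (5.93 to 6.07) and 6.12 for DCX (5.98 to 6.25). STMN3 (4.78), GAP43 (4.23), STMN4 (3.37), DCLK1 (2.46), STMN1 (2.32) and MAPT (1.79) lay between. Of 6 progenitor markers, 5 were lower at D22, among them SOX2 (717 CPM at D10_dSMADi and 224 at D22), HES5 (948 and 27.7) and PAX6 (246 and 95.8), and VIM was higher (1105 and 3630). Their part in the member values was not tested.

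The cells of D22 were split by the UMIs of MKI67 and TOP2A. There were 5898 cells with none (median 11724.5 UMIs), 1582 with 1 to 4 and 2043 with at least 5 (median 17361 UMIs). Of the 10 members, 6 were at least 2-fold higher in the cells without MKI67 or TOP2A and none was at least 2-fold lower, where 5.01% of 8259 genes were higher and 7.89% lower. STMN4 was at 98.4 CPM in non-dividing and 12.6 in dividing cells (2.97, 2.84 to 3.11), STMN2 at 1987 and 261 (2.93, 2.90 to 2.96) and GAP43 at 222 and 31.96 (2.79, 2.71 to 2.88). MAPT was at 21.0 and 3.79 CPM (2.47, 2.22 to 2.73), DCX at 535 and 158 (1.76, 1.72 to 1.80) and MAP1B at 1678 and 691 (1.28, 1.26 to 1.30). MAPT, under 10 CPM in dividing cells, could not have been called lower. The neuronal marker ELAVL4 was at 141 CPM in non-dividing and 19.6 in dividing cells, and SOX2 at 136 and 413. The part of this mix of progenitors and neurons in the member values was not tested.

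The other 4 members were less divided. MAP2 was at 363 CPM in non-dividing and 203 in dividing cells (0.84, 0.80 to 0.87), DCLK1 at 34.5 and 21.1 (0.71, 0.59 to 0.83) and STMN3 at 97.9 and 71.0 (0.46, 0.40 to 0.53). STMN1 was the single member with the higher level in dividing cells, at 2909 CPM against 2624 (-0.15, -0.16 to -0.14). Cells with 1 to 4 UMIs fell between for STMN2 (717 CPM), STMN4 (44.8), GAP43 (81.1), DCX (369) and MAP1B (1091), whereas STMN1 was lowest there (2522). Within the dividing cells, DCX was at 172 CPM with 5 to 14 UMIs of MKI67 and TOP2A, 156 with 15 to 29 and 151 with at least 30. STMN2 was at 321, 268 and 227 CPM in the same groups, STMN4 at 17.6, 15.8 and 8.58, and GAP43 at 34.7, 41.2 and 26.5. At the edge of the split, STMN2 was at 286 CPM in the 191 cells with 3 UMIs, 518 in the 123 with 4, 466 in the 120 with 5 and 234 in the 82 with 6, with no steady course from one to the next. When only cells of 10000 to 20000 UMIs were compared, 6 members were again higher and none lower. With the 6% of cells of highest doublet score removed the split was wider for STMN4 (3.86), STMN2 (3.68) and GAP43 (3.54).

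The non-dividing cells were split once more by SOX2, into 1361 cells with at least 3 SOX2 UMIs and 2653 with none. GAP43 was at 53.0 CPM with SOX2 and 429 without it, a log2 ratio of 3.02 (2.92 to 3.11), MAPT at 6.34 and 39.3 (2.63, 2.36 to 2.91), STMN2 at 661 and 3384 (2.36, 2.33 to 2.38) and STMN4 at 45.2 and 169 (1.90, 1.79 to 2.00). Of these, GAP43 and MAPT had a larger ratio at this second split than at the first, for MAPT within overlapping intervals, while STMN2 and STMN4 had the larger one at the first. DCX was at 368 and 674 CPM (0.87, 0.83 to 0.91) and MAP1B at 1129.7 and 2294 (1.02, 1.00 to 1.04), both smaller than at the first split. DCLK1 was at 22.7 and 51.5 CPM (1.18, 1.03 to 1.34), more than at the first split. STMN1, which leaned to dividing cells, was higher without SOX2, at 3146 CPM against 2040.2 (0.62, 0.61 to 0.64). ELAVL4 was at 54.6 CPM with SOX2 and 210.1 without.

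**Figure D3:**
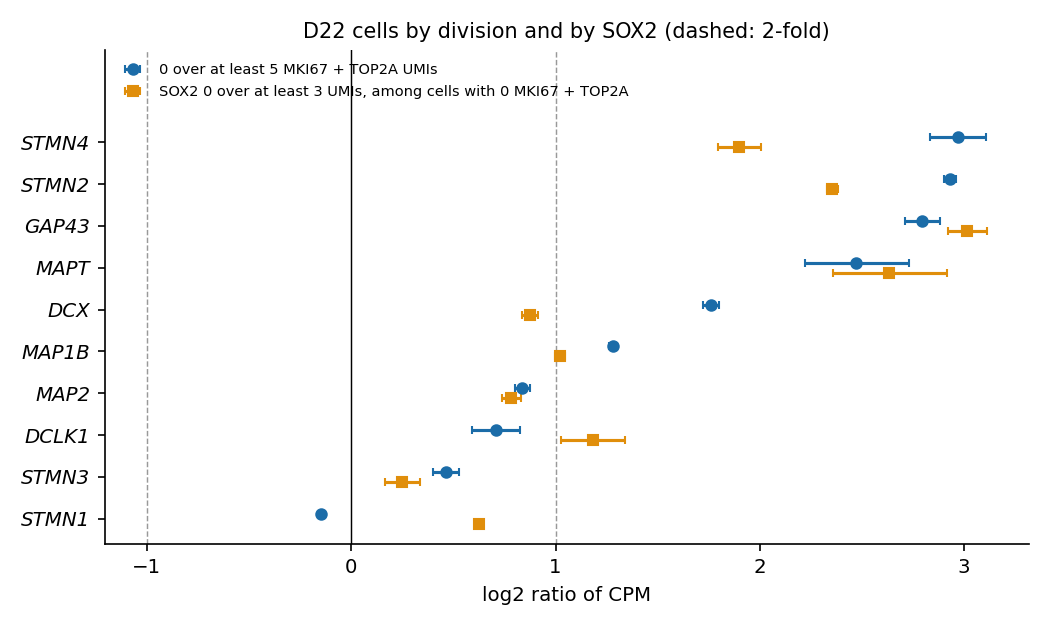
Log2 ratios of CPM at D22 for the 10 genes (vertical axis), with 95% binomial intervals. Circles compare cells with 0 and with at least 5 UMIs of MKI67 and TOP2A, squares compare cells with 0 and with at least 3 SOX2 UMIs among those without MKI67 or TOP2A. STMN1 is the gene with a circle below 0 (-0.15), and GAP43, MAPT, DCLK1 and STMN1 have squares to the right of their circles.

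A finer order came from 10 bins of D22 cells, ranked from least to most neuron-like by the UMIs of 8 neuronal genes (ELAVL3, ELAVL4, INA, SNAP25, SYT1, NSG2, CELF4 and RTN1) against 6 progenitor genes (SOX2, SOX3, VIM, NES, HES5 and TTYH1). Bins are ranges of a score and not cell types. All 10 members were highest in bin 10, and they differed in how early they approached that level. STMN1 and STMN3 were above 50% of it in bin 1, at 52.6% and 51.2%, and STMN3 stood just under it in bin 2, at 68.2 CPM against 139 in bin 10. DCX first passed 50% in bin 8, MAP2 and MAP1B in bin 9, and DCLK1, STMN4, MAPT, GAP43 and STMN2 in bin 10. The order depended on the mark, since 25% was first passed by MAP2 in bin 2, DCX in bin 4 and MAP1B in bin 7, so that MAP2 and DCX changed places.

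Values show the shapes behind this order. DCX was at 125 CPM in bin 1, 278 in bin 4, 474 in bin 7 and 1010.3 in bin 10, a steady climb. STMN2 was at 65.7, 277, 894 and 7719 CPM in the same bins, a 117-fold range. GAP43 was at 14.8, 20.7, 51.7 and 1107 CPM, and MAPT at 3.15, 2.60, 5.78 and 102 CPM, so that both were close to flat over the first 4 bins. STMN1 lay between 2374 and 2590 CPM in bins 1 to 8 and reached 4511 in bin 10. The share of cells with at least 5 UMIs of MKI67 and TOP2A was 45.2% in bin 1, 10.1% in bin 7 and 0.210% in bin 10, and median depth went from 14083 UMIs in bin 1 to 11091.5 in bin 10. The part of RNA free in the suspension in the levels of bin 1 was not tested.

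**Figure D4:**
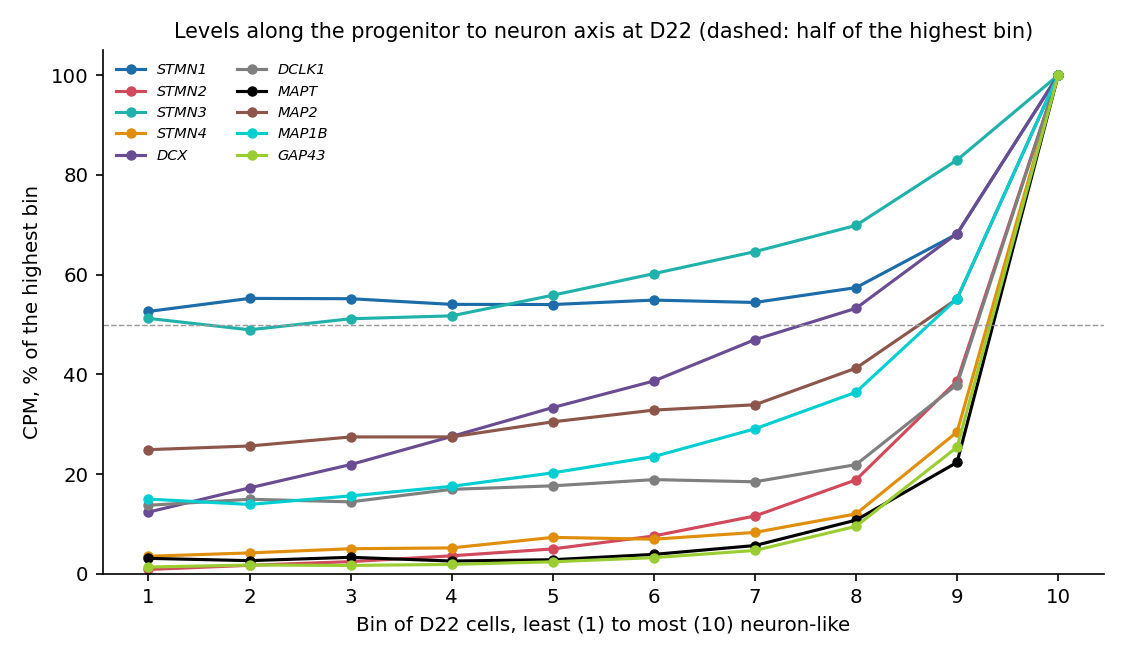
Level of each gene at D22 as a percentage of its level in the highest bin (vertical axis), in 10 bins of 952 or 953 cells from least to most neuron-like (horizontal axis). The dashed line is 50%. STMN1 and STMN3 start above it, DCX crosses it at bin 8, and GAP43, MAPT and STMN4 are still under 30% in bin 9.

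Between D22 and D24, 8 of 10 members were at least 2-fold higher and none lower, where 10.2% of 8453 genes were higher and 12.9% lower. MAPT (3.55, 3.48 to 3.62), GAP43 (3.48, 3.46 to 3.50), STMN2 (2.81, 2.80 to 2.81) and STMN4 (2.36, 2.33 to 2.40) had the largest log2 ratios. DCLK1 followed with 1.83, MAP1B with 1.54, MAP2 with 1.38 and DCX with 1.09. As the mean of per-cell CPM, DCX was at 0.99 and lost its call. STMN1 (0.64) and STMN3 (0.05) were within 2-fold. The levels of MKI67 and TOP2A summed to 541 CPM at D22 and to 18.2 at D24, so that a change in the mix of cells went with these values and cannot be told apart from a change within a cell in the whole-library levels. Bin 10 of D22, described above, can be set beside all D24 cells. The D24 value was above that of bin 10 for STMN2 (7719 CPM in bin 10 and 9045 at D24), GAP43 (1107 and 1624) and MAPT (102 and 164). It was below for STMN1 (4511 and 4195), STMN3 (139 and 90.2), STMN4 (407 and 336), DCX (1010.3 and 853), DCLK1 (112 and 102) and MAP1B (4265 and 3783). For MAP2 (803 and 798) the counting intervals overlapped.

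Between D24 and D26 MAPT alone passed 2-fold, at 1.08 (1.05 to 1.11), among 7.37% of 8391 genes that were higher and 2.03% that were lower. The median log2 ratio of genes with 50 CPM or more was 0.14, and with scaling by that median MAPT was at 0.94. STMN2 (-0.16) and MAP1B (-0.08) were slightly lower, and the other 7 were higher by 0.31 to 0.50. The median log2 ratio was 0.34 over all tested genes and 0.36 over the 10 members, so that these rises were near the background. MAPT was higher at D26 in each of 3 groups of cells, by 1.15 (1.00 to 1.30) in DLX cells, 1.00 (0.97 to 1.04) in TBR1/PPP1R17 cells and 1.20 (1.14 to 1.26) in the cells of neither gate, as defined next. STMN4 was also past 2-fold in the DLX cells (1.09, 0.95 to 1.23), but not in the others (0.39 and 0.51). The share of all genes past 2-fold within these groups was not computed. In the DLX cells SOX2 was at 120.2 CPM at D24 and 43.8 at D26, and its part in the member values was not tested.

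Neurons of D24 and D26 were compared by marker genes, the DLX homeobox genes against TBR1 and PPP1R17. Cells with at least 3 UMIs of DLX1, DLX2, DLX5 and DLX6 and none of TBR1 and PPP1R17 (323 at D24, 1180 at D26) were set against cells with the reverse (5302 and 7291). None of the 10 members differed by 2-fold in either direction at either day, among 9.00% of 7726 genes that did at D24 and 7.20% of 8484 at D26. STMN4 was nearest at D24, at 176 CPM in DLX cells and 347 in TBR1/PPP1R17 cells (-0.97, -1.11 to -0.84), and at D26 it was at 376 and 454 (-0.27, -0.32 to -0.22). GAP43 was lower in DLX cells on both days, at 1011 and 1760.1 CPM at D24 (-0.80, -0.86 to -0.74) and 1629 and 2217 at D26 (-0.44, -0.47 to -0.42). DCLK1 was lower too, with ratios of -0.55 at D24 (-0.76 to -0.35) and -0.73 at D26 (-0.83 to -0.64). MAP1B leaned the other way, at 4248 and 3731 CPM at D24 (0.19, 0.16 to 0.21) and 4938 and 3275 at D26 (0.59, 0.58 to 0.61). MAPT was at 160 and 176 CPM at D24 and at 354 and 352 at D26. SOX2 was at 120.2 CPM in DLX cells and 4.22 in TBR1/PPP1R17 cells at D24, and at 43.8 and 1.55 at D26. ELAVL4 was at 87.5 and 250.1 CPM at D24 and at 122 and 248 at D26, and the part of these differences in the member values was not tested.

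Within the DLX cells, those with at least 10 GNRH1 UMIs (205 at D24, 722 at D26) were set beside those with at most 1 (93 and 288). MAP1B was higher with GNRH1 on both days, at 4498 against 3599 CPM at D24 (0.32, 0.26 to 0.39) and 5325 against 4086 at D26 (0.38, 0.35 to 0.41). MAPT was at 184 against 87.4 CPM (1.07, 0.68 to 1.49) and 387 against 278 (0.48, 0.35 to 0.60), GAP43 at 1097 against 810.2 (0.44) and 1764 against 1315 (0.42), and STMN2 at 8338 against 6321 (0.40) and 8066 against 6762 (0.25). DCX was lower with GNRH1 on both days, at 645 against 790.5 CPM (-0.29, -0.44 to -0.14) and 960.1 against 1025 (-0.09, -0.16 to -0.03). GNRH1 itself took 24531 CPM of the GNRH1 cells at D24 and 30635 at D26. SOX2 was at 139 CPM with GNRH1 and 80.3 without at D24, and at 37.3 and 54.6 at D26. At D26 the GNRH1-poor cells also held MKI67 at 13.0 CPM and TOP2A at 36.5, against 0.149 and 0.297 with GNRH1, and the part of these in the member values was not tested. Median depths at D24 were 8347 UMIs with GNRH1 and 7509 without, and at D26 9409 and 8371.

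**Figure D5:**
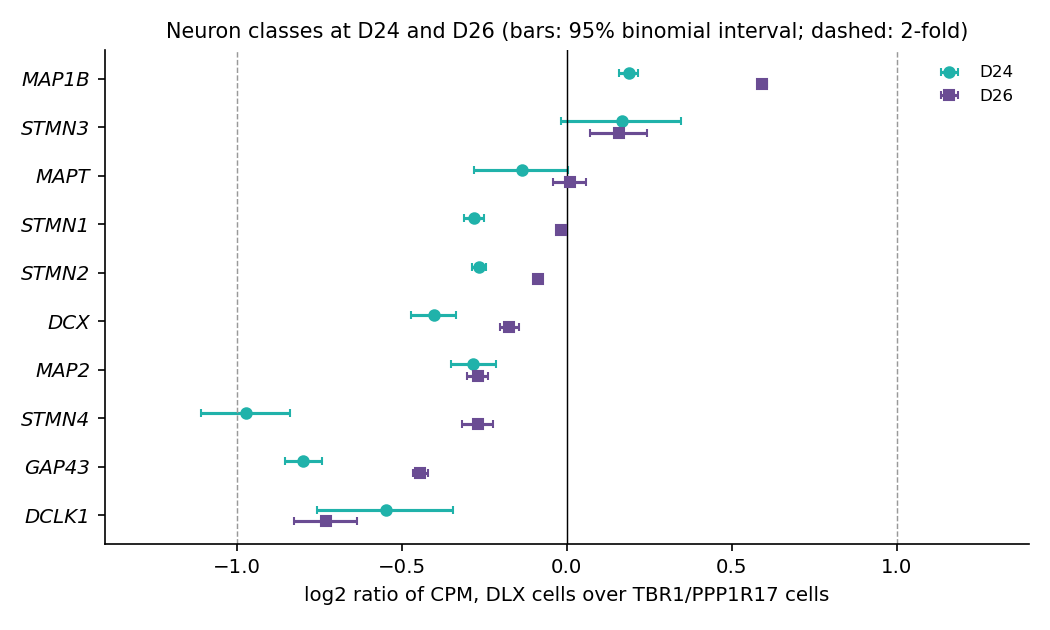
Log2 ratio of CPM in DLX cells over TBR1/PPP1R17 cells (horizontal axis) for the 10 genes, at D24 (circles) and D26 (squares), with 95% binomial intervals. All points lie between the dashed lines at 2-fold, MAP1B farthest to the right at D26 (0.59) and STMN4 farthest to the left at D24 (-0.97).

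A list of 73 further genes of microtubules and growth cones was read by the same rule. From D10 to D22, 25 of 61 tested were higher and 6 lower, against 11.7% and 21.7% of all genes, with a median log2 ratio of 0.64 against -0.30 over all genes and 2.91 over the 10 members. Neuronal kinesins, the motors of axonal transport, had 5 of 10 higher and none lower at that step. From D22 to D24, 18 of 63 list genes were higher and 2 lower, where 10.2% and 12.9% of all genes were. The kinesins had 6 of 10 higher at this later step and the growth-cone membrane proteins 3 of 7. None of the list's 8 microtubule-associated proteins and none of its 4 severing proteins was called in either direction. These are too few to set against the shares over all genes. The members MAPT, MAP2 and MAP1B, which are not on this list, were called higher at this step. KIF5A, a kinesin heavy chain of neurons, was higher by 4.34 and then by 2.19, and the growth-cone adhesion protein CNTN2 was higher by 5.38 from D10 to D22 and fell by 3.63 from D24 to D26. MAP1A and MAP6, which stabilise microtubules, were higher by 3.19 and 3.07 at D22. MAP7, which recruits kinesin, had ratios of -3.66 at that step and -2.29 from D0 to D5. In the D22 split, 13 of 59 were higher in non-dividing cells (5.01% of all genes), led by L1CAM (2.82). A further 5 were lower, where 7.89% of all genes were, so that this share was near the background. Among these 5 were the spindle proteins TPX2 (-7.28) and CKAP5 (-1.997) and the dynein regulator NDE1 (-4.08).

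From D0 to D5, 7 of 49 list genes were lower and 6 higher, where 17.0% and 8.24% of all genes were, so that the share of lower list genes was near the background. VASH2, which removes the end tyrosine of tubulin, fell by 3.87, KIF1A, a vesicle motor, fell by 2.74 and GPM6B, a neuronal membrane protein, fell by 1.84, while DPYSL5, a collapsin response mediator, was higher by 1.85. In DLX cells at D24, 5 of 61 list genes differed by 2-fold, where 9.00% of all genes did, so that their share was near the background. Of these, 1 was higher, the doublecortin-family kinase DCLK2 (1.03), and 4 were lower, namely CNTN2 (-2.97), NAV3 (-1.14), FIGN (-1.02) and MAP6 (-1.02). At D26, 1 of 61 differed, where 7.20% of all genes did, the microtubule-severing protein FIGN (-1.44). With XAV939, 0 of 47 list genes differed by 2-fold at D5, where 1.19% of all genes did, and 3 of 53 at D10, where 2.62% did. At D10 CNTN2 (2.97) and CRMP1 (1.21), a collapsin response mediator of axon growth, were higher and MAP7 lower (-1.56).

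For each member, the genes of most similar profile over the 8 conditions were sought among 4880 genes, as the smallest distance between centred log2(CPM + 10) values. MAPT was closest to SAMD3 (0.42), CELF4 (0.68) and RELN (0.79), STMN1 to CHD3 (0.42), TRIM36 (0.51) and GPC2 (0.64), and MAP1B to TCEAL7 (0.49), DAAM1 (0.50) and NRN1 (0.54). For DCLK1, SEPT3 lay at 0.50 and RCAN2 at 0.61, and STMN4 was closest to GPM6A (0.57), INA (0.84) and NEFL (0.90). STMN3 was closest to RHOBTB3 (0.75), KIF1A (0.84) and GNG4 (0.93), MAP2 to ZFHX3 (0.84), TUBA1A (0.97) and TAGLN3 (1.17), and GAP43 to PCSK1N (0.86), GNG3 (1.55) and RTN1 (1.90). DCX was closest to NLRP1 (1.23), ELAVL3 (1.52) and DCC (1.79). For STMN2 the closest were NLRP1 (3.72), PCSK1N (3.80) and RTN1 (4.08). The distance grows with the range of a gene, so that distances of different members are not compared.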

How the data were processed

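Single-cell 3′ RNA-seq (10x Genomics, reagent kit v3) of 5 deposited samples was used, 1 of them a pool of 5 tagged conditions whose tag library gave no measurement here. Per the labels the authors aligned reads to GRCh38 with Cell Ranger 3.1, while the file headers name version 6.1.2 for the tagged pool and 3.1.0 for the 3 later libraries. Dissociation of the pool is given as Accutase in the study's methods and as papain in the labels. The deposited values are UMI counts per gene and cell, not normalized. Gene lists held 33538 and 36601 genes.

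The study's stated limits on UMIs, genes, mitochondrial share and complexity (log genes over log UMIs) were applied per library. At D0 the stated lower limit on complexity of 0.85 leaves 1 of 1292 barcodes, so it was not used there and 1009 were kept. The other conditions kept 2419 of 2480, 2815 of 2919, 2416 of 2778, 2168 of 2638, 9523 of 9824, 9107 of 9905 and 11056 of 12171. Doublets were kept in the main values, and an alternative removed 6% of cells per library by a simulated-doublet score.

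Counts were summed over cells and given in CPM with exact Poisson intervals, ratios with exact binomial intervals and shares with Clopper-Pearson intervals, all at 95% (Python 3.11.15, numpy 2.4.6, scipy 1.17.1, tested on simulated data). PCR duplicates are collapsed by UMI, and intervals cover counting error only. A gene was tested with at least 10 CPM in 1 of the 2 groups and called at 2-fold. A gene under 10 CPM in 1 group could therefore be called only as higher in the other. The same holds for the shares over all genes. There is 1 library per condition, so no test across samples was made, and cells were not treated as replicates.

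The genes, lists and comparisons were chosen with earlier results of these data known. Named are all members, the list genes with the 5 largest and 5 smallest called ratios of a comparison, of which the text gives some, and the 3 nearest profiles of each member, of which 1 is not reported here. STMN1 has 2 processed pseudogenes by name in GENCODE 44, with which it could share reads, and MAPT overlaps the antisense gene MAPT-AS1.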

Additional observations from a re-analysis of the deposited data

Results flagged for a closer look

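Of 50 pairs of values in which the same contrast was read in 2 settings for a member, 6 had opposite directions with both counting intervals away from 0. The difference between the 2 settings was not tested in any of them, since each setting is 1 library or a part of one. The same count was not made over all genes, so these 6 cannot be set against a background.

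At D10, the contrast of XAV939 with dual SMAD inhibition alone had opposite directions inside and outside the neuron gate for 4 members. STMN4 was lower with XAV939 inside the gate (-1.496 in log2) and higher outside it (1.88). MAP2 was at -0.89 inside and 0.18 outside, STMN1 at -0.54 and 0.56, and MAP1B at -0.092 and 0.33. The gate held 20 cells without XAV939 and 61 with it, and its cut was not varied. Cells gated with XAV939 had 154 CPM of TOP2A and 236 of SOX2, those gated without it 14.8 and 153, and the part of this in the member levels was not tested.

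From D24 to D26, MAP1B was higher in DLX cells (0.22) and lower in TBR1/PPP1R17 cells (-0.19). In the contrast of GNRH1-rich with GNRH1-poor DLX cells, STMN4 was lower at D24 (-0.35) and higher at D26 (0.25), where the D24 value rests on 93 GNRH1-poor cells with 145 STMN4 UMIs.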

How the results depend on the processing

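No paired analysis was possible because each condition is 1 library, and for the same reason no replicate could be left out. Under 17 alternative settings, all 250 values of called members kept their sign and 244 stayed past 2-fold. The exceptions were STMN2 from D5 to D10 (0.89 with every barcode, 0.99 with median-ratio scaling, 0.96 without mitochondrial and ribosomal protein genes in the total), MAPT from D24 to D26 (0.94 with median-ratio scaling, 0.99 without those genes in the total) and DCX from D22 to D24 (0.99 as the mean of per-cell CPM). For values within 2-fold, STMN3 from D22 to D24 and STMN1 between classes at D26 lay near 0 and changed sign under some settings. Of 100 counts, 91 were within 1.5 times the value reported. At a call of 1.5-fold, 1 member differed with XAV939 at D5, 2 between classes at D24 and 2 at D26, and calls of list genes over all comparisons went from 104 to 181. At 3-fold there were 14 member calls of higher levels between days in place of 22, and 48 list calls. With cells thinned to 1500 UMIs, 1 member (MAP2) was called with XAV939 at D5. With gates of at least 6 UMIs, 1 member differed between classes at D24 (GAP43, -1.02). An onset mark of 25% left 4 of 10 onsets at the day given, a mark of 5% left 8 (MAP1B moved to D0 and GAP43 to D22), and a total without mitochondrial and ribosomal protein genes left 9 (MAP1B moved to D5), with DCX in bin 7 of the D22 axis. Along the D22 bins, leaving out VIM and RTN1 moved DCX to bin 7 and STMN2 and DCLK1 to bin 9, and the mean of per-cell CPM moved STMN3 to bin 3. The limits are that every value rests on 1 library and that genes under 10 CPM in both groups were not called. D22, D24 and D26 are separate runs, apart from the pooled run of D0 to D10. Software version, gene annotation, the lower limit on UMIs and the treatments received also differ between D10 and D22. The lower limit on UMIs also differs between D0 and D5.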
